A study of Mus musculus with 15 samples.

Results

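Heterotrimeric G proteins carry signals from cell surface receptors to enzymes and channels inside the cell. Each is built from a Gα subunit, which binds guanine nucleotide, and a Gβ subunit that stays joined to a small Gγ subunit. In pancreatic β cells the Gαs protein mediates the rise in cyclic AMP after incretin hormones bind, the Gαi proteins oppose it, and Gαq and Gα11 activate phospholipase C. The 10 genes described here encode 4 Gβ subunits (Gnb1, Gnb2, Gnb4 and Gnb5) and 6 Gα subunits (Gnai1, Gnai2, Gnai3, Gnaz, Gnaq and Gna11). They were found by symbol among the 23699 gene entries of each table, and all 10 were measured in every library. Gnb2 was selected on its FPKM values in control cells, where it was lower in ALDH+ than in ALDH- libraries, and the other 9 subunit genes were taken for comparison with it. For that reason the control ALDH+ against ALDH- values are given below as a description with no test.

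RNA was measured by poly-A RNA-seq in 15 libraries of red fluorescent (RFP+) islet cells sorted from mice on a mixed 129J and C57BL/6 background, aged 6 months where the study's methods give it. RFP was switched on by cre recombinase, and aldehyde dehydrogenase (ALDH) activity was read with a fluorescent ALDH substrate, so that each population was split into ALDH- and ALDH+ cells. The labels call the control mice heterozygous for Foxo1, Foxo3 and Foxo4, where the study itself calls the controls wild-type (Foxo +/+), so the control genotype is given in conflicting ways. They call the knockout mice deleted for all 3 genes. Knockout below means labelled as such. There were 3 control ALDH-, 2 control ALDH+, 5 knockout ALDH- and 5 knockout ALDH+ libraries. Cre was driven by the rat insulin promoter (RIP-Cre) in 9 libraries and by the Pdx1 promoter (Pdx-Cre) in 6. The Pdx-Cre libraries were control ALDH- replicate 3, control ALDH+ replicate 2 and replicates 4 and 5 of both knockout groups. Pdx1 is active in the embryonic pancreas, so Pdx-Cre can also mark cells other than β cells. The study's methods state that islets for sorting came from several RIP-Cre animals per genotype, without assigning animals to libraries. The sources used here do not say whether a library came from 1 animal or from a pool, so p-values measure the spread between these libraries only.

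Recovered depth was 7490987 to 10057002 fragments per library. Foxo1 was 12.04 to 20.1 FPKM in control and 0.0925 to 4.24 FPKM in knockout libraries, whereas Foxo3 was not lower in knockouts (12.7 to 23.0 against 9.78 to 30.6 FPKM) and Foxo4 was at or under 1.34 FPKM throughout. Gene-level FPKM does not show whether part of the Foxo3 transcript was missing. Aldh1a3, the enzyme behind the sort, was 22.1 to 76.9 FPKM in ALDH+ and 0.490 to 4.09 FPKM in ALDH- libraries. The summed FPKM of 6 β cell markers was 34268 to 69873 in control ALDH+ against 82263 to 126053 in control ALDH- cells, and 43263 to 98359 against 88174 to 114549 in knockouts. The 6 were Iapp, Pdx1, Mafa, Nkx6-1, Slc2a2 and Ucn3, without Ins1 and Ins2. Such a sum follows its most abundant genes, so it does not show whether each marker was lower. In these bulk samples, fewer cells of a type and less RNA per cell cannot be told apart. Malat1, a nuclear RNA, was 4047 to 4371 FPKM in control ALDH+ and 230 to 761 FPKM in control ALDH- libraries, and longer transcripts were higher relative to shorter ones in ALDH+ cells. The fitted slope was 0.20 in controls and 0.090 in knockouts, in log2 units per doubling of transcript length over 11142 genes. The part of these features in the results below was not tested.

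The order of the levels is given first, since FPKM is scaled per transcript length and allows genes to be compared. Gnai2, which encodes an inhibitory Gα subunit, had the highest mean of the 10 members over the 15 libraries (222 FPKM after rescaling between libraries). Gnb1 followed with 118, Gnai3 with 65.0 and Gna11 with 39.1. Gnaz had a mean of 31.6, Gnaq of 29.3 and Gnb2 of 27.3. From Gna11 to Gnb2, neighbours in rank could not be put in a firm order. Gna11 exceeded Gnaz in 9 of 15 libraries, Gnaz exceeded Gnaq in 7 and Gnaq exceeded Gnb2 in 9. Gna11 was above Gnb2 in every library. Gnb5 (7.11), Gnai1 (3.89) and Gnb4 (1.76) were the lowest. Gnai2 was above Gnb1 in 15 of 15 libraries, Gnb1 above Gnai3 in 14 and Gnb2 above Gnb5 in 15. Gnb5 was above Gnai1 in 13 libraries and Gnai1 above Gnb4 in 10. Gnb3, the remaining Gβ gene, was listed at 0 in all 15 libraries.

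Gnb2 encodes Gβ2, one of the widely expressed Gβ subunits, and lies on chromosome 5 at 137969357 to 137974457 (mm9). It was 30.4, 30.6 and 39.9 FPKM in the 3 control ALDH- libraries and 9.31 and 20.3 FPKM in the 2 control ALDH+ libraries. Both ALDH+ values lay below all 3 ALDH- values. In knockout ALDH- cells it was 22.1, 30.05, 25.0, 43.1 and 37.0 FPKM, and in knockout ALDH+ cells 15.6, 20.4, 20.1, 34.6 and 29.6 FPKM (replicates 1 to 5). The knockout groups overlapped as a whole, because the Pdx-Cre libraries of either population were higher than its RIP-Cre libraries. These values rest on 121 to 621 recovered fragments, the fewest in control ALDH+ replicate 1.

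**Figure D1:**
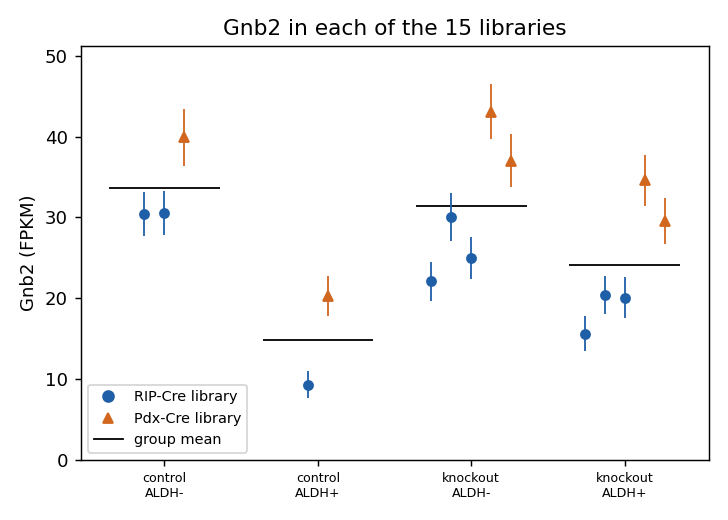
Gnb2 level (FPKM, vertical axis from 0) in each library of the 4 groups. Blue circles are RIP-Cre and orange triangles Pdx-Cre libraries, thin vertical lines are the deposited confidence intervals of single estimates, and horizontal lines are group means; the lowest point is control ALDH+ replicate 1 at 9.31 FPKM, and the Pdx-Cre points lie above the RIP-Cre points in each group.

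In control cells, which chose the gene, Gnb2 averaged 33.6 ± 5.44 FPKM (SD, n = 3) in the ALDH- and 14.8 ± 7.75 FPKM (SD, n = 2) in the ALDH+ population. With the cre driver in the model the log2 difference was -1.36 (all such differences are of FPKM + 1). It was -1.60 between RIP-Cre libraries alone and -1.06 between the 1 Pdx-Cre library of each population. With the trend on transcript length removed it was -1.15. Gnb2 has a short transcript, with an effective length 0.498 times that of the median gene.

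In knockout cells, which took no part in the choice, Gnb2 averaged 31.4 ± 8.64 FPKM in the ALDH- and 24.1 ± 7.77 FPKM in the ALDH+ population (SD, n = 5 each). The log2 difference was -0.37 (SE 0.14, 95% interval -0.68 to -0.07), and it did not pass adjustment over all 11253 genes tested with limma (adjusted p = 0.28). That fit takes its spread and driver term from all 15 libraries, controls included. A fit on the knockout libraries alone gave -0.37 (SE 0.16, 95% interval -0.71 to -0.03, limma adjusted p = 0.42). Within RIP-Cre libraries the 3 ALDH+ values (15.6 to 20.4 FPKM) were all below the 3 ALDH- values (22.1 to 30.05 FPKM). Within Pdx-Cre libraries the 2 ALDH+ values (29.6 and 34.6 FPKM) were also below the 2 ALDH- values (37.0 and 43.1 FPKM). The mean log2 difference was -0.42 for the RIP-Cre and -0.30 for the Pdx-Cre driver. Gnb2 was the 1 gene of the 10 with this separation inside each driver, which 2.24% of all genes tested showed in the same direction. An exact two-sided permutation test of 5 against 5 libraries gave p = 0.198. The exact test that permuted ALDH labels within each driver gave p = 0.0167, the smallest its 120 arrangements allow. That second arrangement was chosen after the driver difference had been seen.

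The other Gβ genes differed in level from Gnb2 and from each other. Gnb1, the most abundant Gβ gene, was 136, 163 and 147 FPKM in control ALDH- cells and 100.4 FPKM in each of the 2 control ALDH+ libraries. In knockouts it ranged from 68.1 to 150.7 FPKM in ALDH- and from 65.1 to 132 FPKM in ALDH+ cells. The control groups did not overlap, while the knockout groups overlapped almost fully, and the log2 difference was -0.63 in controls and -0.18 (SE 0.20, adjusted p = 0.74) in knockouts. Gnb5, whose product pairs with RGS proteins of the R7 group rather than with Gγ, was 6.73 to 7.02 FPKM in control ALDH- cells and 3.47 and 8.33 FPKM in control ALDH+ cells. Its groups overlapped in both genotypes, and its log2 difference in knockouts was -0.50 (SE 0.29, adjusted p = 0.49). Gnb4 was near the limit of measurement, with 6 to 156 fragments per library. It was 0.917 to 1.87 FPKM in control ALDH- and 0.248 and 0.490 FPKM in control ALDH+ libraries, and 1.24 to 5.83 against 0.227 to 3.23 FPKM in knockouts.

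Shares within a library do not depend on scaling between libraries. Gnb1 held 62.0% to 88.5% of the summed Gβ FPKM and Gnb2 held 8.21% to 27.4%. Gnb2 made up 15.2% to 20.4% in control ALDH- libraries, and 8.21% and 15.7% in the 2 control ALDH+ libraries. The share was 14.8% to 27.4% in knockout ALDH- and 12.4% to 22.4% in knockout ALDH+ libraries. These ranges overlapped in both genotypes, so the Gnb2 share separated the ALDH populations less than the Gnb2 level did in controls. The ratio of Gnb1 to Gnb2 ran from 2.27 to 10.8, with its highest value in control ALDH+ replicate 1. The summed FPKM of the 6 Gα members was 1.93 to 3.88 times that of the Gβ genes. That sum leaves out other Gα genes, such as Gnas at 872 to 1571 FPKM, so it is not the ratio of all Gα to Gβ RNA.

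**Figure D2:**
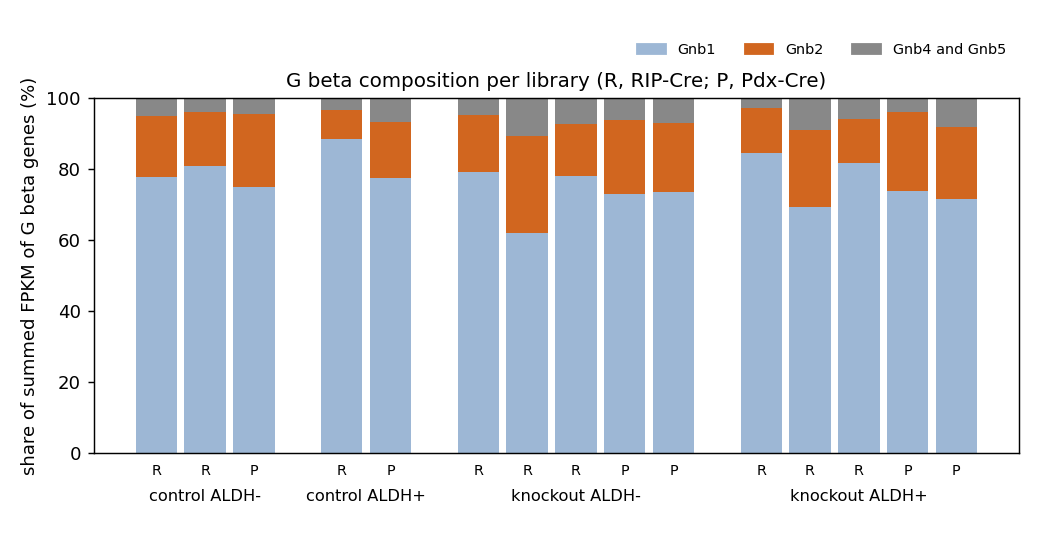
Share of the summed Gβ FPKM (percent, vertical axis) held by Gnb1, Gnb2 and by Gnb4 with Gnb5 in each library, 1 bar per library, with R for RIP-Cre and P for Pdx-Cre. Gnb1 is the largest part of every bar (62.0% to 88.5%) and Gnb2 is smallest (8.21%) in the RIP-Cre control ALDH+ library.

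Among the inhibitory Gα members, Gnai1, Gnai2 and Gnai3 followed the direction of Gnb2 in both genotypes in the fit over all 15 libraries. Gnaz did not, and the Gnai2 differences were the largest. Gnai2, on chromosome 9 at 107516469 to 107537673 (mm9), was 264, 253 and 274 FPKM in control ALDH- and 164 and 154 FPKM in control ALDH+ libraries, with no overlap. In knockouts it was 267, 195, 269.8, 245 and 295 FPKM in ALDH- and 211, 206, 195.0, 214 and 123 FPKM in ALDH+ cells. The knockout groups overlapped through ALDH- replicate 2, the lowest of its group. The log2 difference was -0.76 in controls and -0.42 in knockouts (SE 0.16, 95% interval -0.77 to -0.08, adjusted p = 0.28). Within knockout cells it was -0.23 in RIP-Cre and -0.72 in Pdx-Cre libraries, the latter with ALDH+ replicate 5 at 123 FPKM.

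Gnai3 was 54.3 to 69.0 FPKM in control ALDH- cells and 43.3 and 68.7 FPKM in control ALDH+ cells. In knockouts it was 56.9 to 83.7 FPKM in ALDH- and 53.4 to 71.5 FPKM in ALDH+ cells, and its difference there was -0.14 (SE 0.16, adjusted p = 0.77). Gnaz encodes Gαz, an inhibitory Gα that pertussis toxin does not modify. It spread widely in each knockout group, from 19.0 to 50.8 FPKM in ALDH- and from 21.7 to 50.3 FPKM in ALDH+ cells, and its difference was 0.17 (SE 0.25, adjusted p = 0.82). Its control difference was 0.11. The Gnaz locus overlaps that of Rtdr1, which was at most 0.387 FPKM. Whether reads were assigned by strand is not given in the sources used here. Gnai2 held 64.1% to 81.3% of the summed FPKM of Gnai1, Gnai2 and Gnai3.

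Gnai1, the least abundant Gαi gene, was lower in knockouts, though not past adjustment over all genes. It was 6.40, 6.52 and 6.63 FPKM in control ALDH- libraries. In knockout ALDH- libraries it was 1.33, 1.85, 4.87, 5.57 and 1.92 FPKM. In ALDH+ cells it was 4.41 and 7.03 FPKM in controls and 2.64, 1.61, 1.14, 3.84 and 2.88 FPKM in knockouts. Every knockout library lay below every control library of its ALDH population, and Gnai1 was the 1 gene of the 10 for which this held (1.6% of all genes in ALDH- and 3.99% in ALDH+ cells). The log2 difference between genotypes was -1.04 in ALDH- cells (SE 0.34, adjusted p = 0.74) and -0.93 in ALDH+ cells (SE 0.39, adjusted p = 0.72), so neither passed. The scale of FPKM + 1 understates changes of low genes such as Gnb4, whose mean was 0.369 FPKM in control and 1.73 FPKM in knockout ALDH+ cells (log2 difference 0.85, SE 0.53, adjusted p = 0.85). The ALDH difference of Gnai1 in knockouts was -0.18 (SE 0.29, adjusted p = 0.84).

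Gnaq and Gna11 encode the Gα subunits that activate phospholipase Cβ. Gna11 was 44.2, 43.1 and 42.3 FPKM in control ALDH- and 36.7 and 30.6 FPKM in control ALDH+ libraries, with no overlap. In knockouts it was 34.2 to 51.3 FPKM in ALDH- and 27.2 to 44.4 FPKM in ALDH+ cells, which overlapped. The log2 difference was -0.41 in controls and -0.33 in knockouts (SE 0.15, adjusted p = 0.36). Gnaq scarcely differed between ALDH populations in knockouts (0.01, SE 0.13, 95% interval -0.27 to 0.29), and its control difference was -0.11. The ratio of Gna11 to Gnaq ran from 0.786 to 1.97. The Gnaq locus overlaps that of E030024N20Rik (8.40 to 18.6 FPKM), and reads of the overlap may be counted for either.

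**Figure D3:**
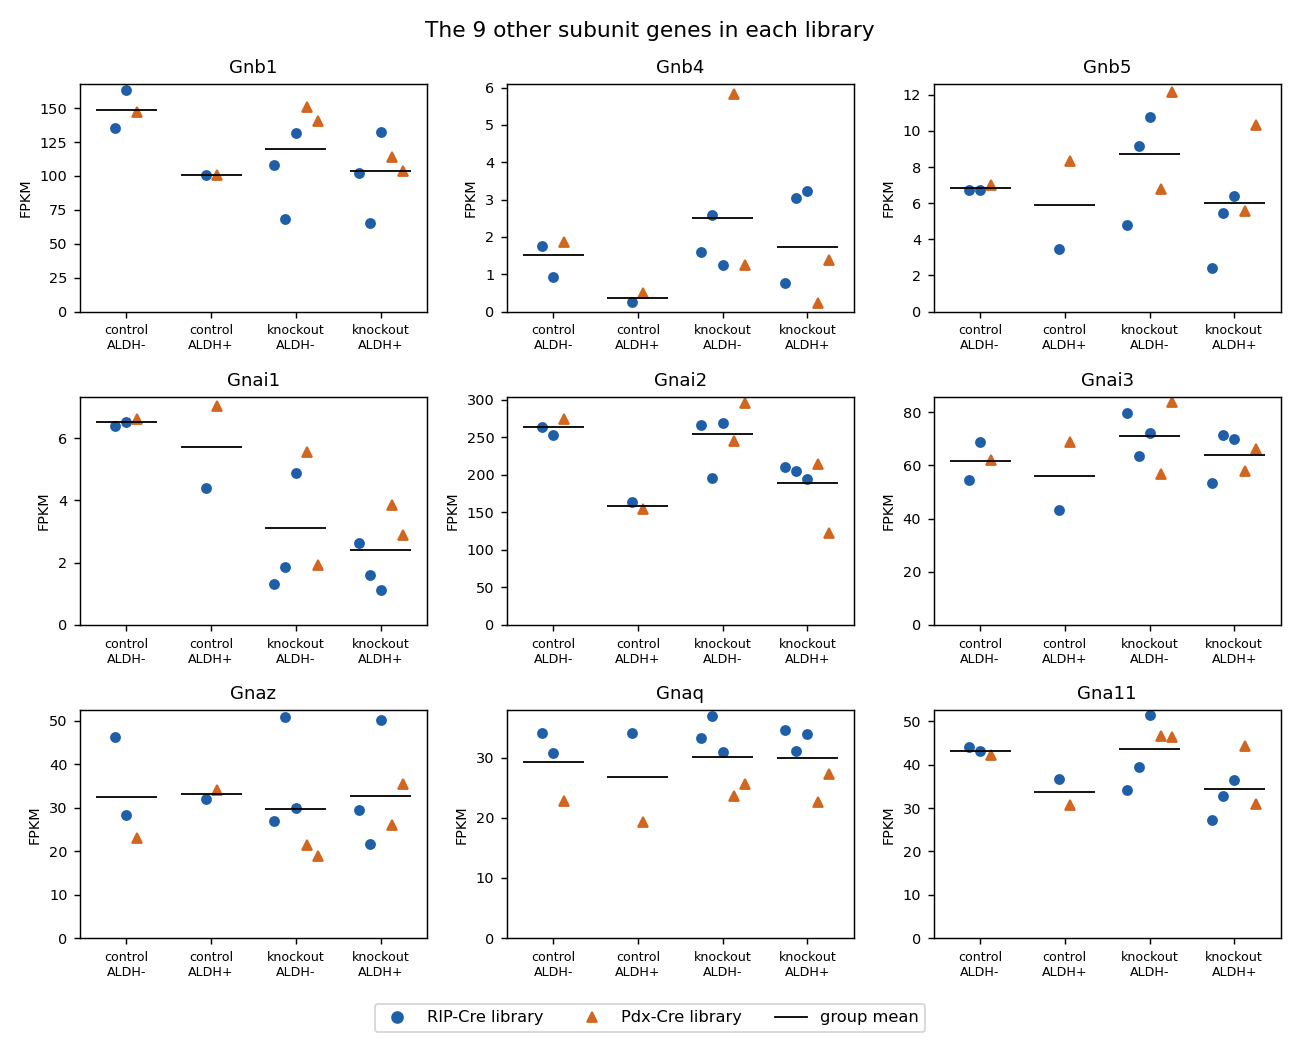
FPKM (vertical axes from 0, a separate scale for each gene) of the other 9 subunit genes in the libraries of the 4 groups, with blue circles for RIP-Cre, orange triangles for Pdx-Cre and lines for group means. Gnai2, Gnb1 and Gna11 are lower in both control ALDH+ than in all 3 control ALDH- libraries, Gnai1 is lower in knockouts in each ALDH population, and the Gnaq triangles lie under the circles.

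Over the 10 genes, 9 had a negative ALDH+ minus ALDH- difference in controls, with a median of -0.39 where all tested genes had -0.03. The sign depended on the setting for 3 of them, since over 13 alternatives Gnai3 ran from -0.55 to 0.15, Gnaq from -0.31 to 0.07 and Gnaz from -0.18 to 0.4. Both control ALDH+ libraries were below all 3 ALDH- libraries for 5 of the 10 (Gnb1, Gnb2, Gnb4, Gnai2 and Gna11), a pattern seen in 17.1% of all genes tested. Nothing is read from that count, since controls chose Gnb2. In knockouts 8 of the 10 differences were negative, with a median of -0.26 where all tested genes had -0.0081. None of the 10 passed adjustment (0 of 10, where 0.0178% of all genes did), while 3 of the 10 (Gnb2, Gnai2 and Gna11) had an unadjusted p under 0.05, where 13.1% of all genes did. None of the 10 had all 5 ALDH+ libraries below all 5 ALDH- libraries (0.951% of all genes).

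**Figure D4:**
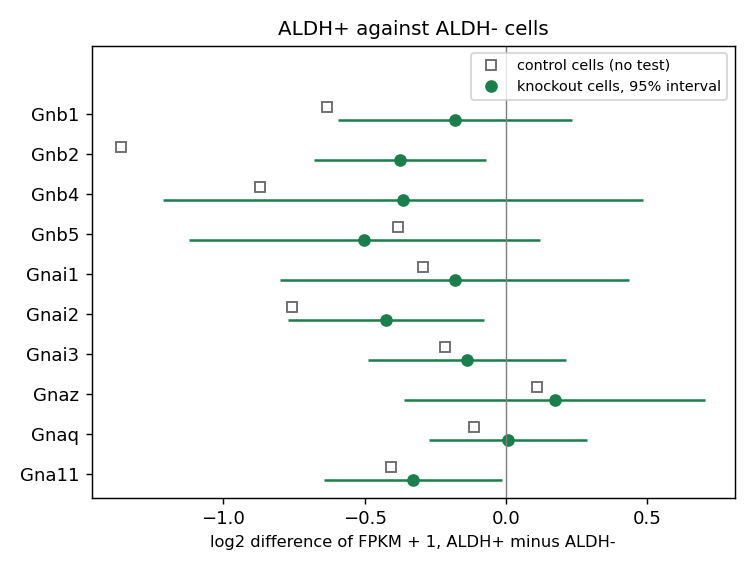
Log2 difference of FPKM + 1 between ALDH+ and ALDH- cells (horizontal axis, ALDH+ minus ALDH-) for the 10 genes. Open squares are control cells, given with no test. Green circles with lines are knockout cells with 95% intervals from the fit over all 15 libraries. Gnb2 is at -1.36 in controls and -0.37 in knockouts, and the knockout intervals of Gnb2, Gnai2 and Gna11 lie below 0 in that fit.

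Next, the genotypes were compared within each ALDH population. Gnb2 is described without a test there, because the control libraries that chose it are part of these comparisons. Its log2 difference, knockout minus control, was -0.18 in ALDH- and 0.81 in ALDH+ cells. The 9 other genes gave 0 calls after adjustment in ALDH- cells (0.0178% of all genes), in ALDH+ cells (0% of all genes) and for the difference between genotypes in the ALDH effect (0%). At an unadjusted p under 0.05, Gnai1 was the 1 gene of 9 in ALDH- cells (5.78% of all genes) and again the 1 of 9 in ALDH+ cells (6.61%), and 0 of 9 in the test of the difference between genotypes (4.23%). For that difference Gnb2 had 0.99, again untested, and the largest of the other 9 were Gnb4 (0.51, SE 0.70) and Gnb1 (0.45, SE 0.34, adjusted p = 1.00).

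The cre driver was the comparison in which members passed the test. Over all 15 libraries Pdx-Cre minus RIP-Cre was called for 2 of the 10 genes (Gnb2 and Gnaq), where 9.73% of all genes were called. In the 10 knockout libraries, which took no part in selecting it, Gnb2 was higher with Pdx-Cre by 0.70 (SE 0.16, 95% interval 0.36 to 1.05, limma adjusted p = 0.040), and an exact permutation within ALDH populations gave p = 0.01, the smallest its 100 arrangements allow. The fit over all 15 libraries gave 0.73 (SE 0.12, 95% interval 0.47 to 0.98, adjusted p = 0.0017), and that p is not independent of the selection, because it uses the control libraries too. In rescaled log2 values it was higher in each of the 4 groups, by 0.55 in control ALDH-, 1.09 in control ALDH+, 0.64 in knockout ALDH- and 0.76 in knockout ALDH+ cells. Every Pdx-Cre library exceeded every RIP-Cre library of its group.

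Gnaq moved the opposite way. It was 30.7 to 37.0 FPKM in the 9 RIP-Cre libraries and 19.3 to 27.2 FPKM in the 6 Pdx-Cre libraries, with no overlap between drivers across all groups. Of the 10 genes, Gnaq was the 1 whose 6 Pdx-Cre and 9 RIP-Cre libraries did not overlap, as 1.94% of all genes did. Its log2 difference was -0.44 (SE 0.11, 95% interval -0.67 to -0.20, adjusted p = 0.020). In knockout libraries alone it was -0.41 and not called (adjusted p = 0.17). The exact permutation within ALDH populations gave p = 0.01, the smallest its 100 arrangements allow. That permutation was run for Gnb2 and Gnaq alone, so neither p adds support beyond the separation given next. Gnb2 and Gnaq were the 2 of 10 genes whose knockout libraries separated by driver inside each ALDH population, in the same direction in both, as 8.93% of all genes did. The other 8 differences lay between -0.33 (Gnaz) and 0.49 (Gnb5, adjusted p = 0.22).

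**Figure D5:**
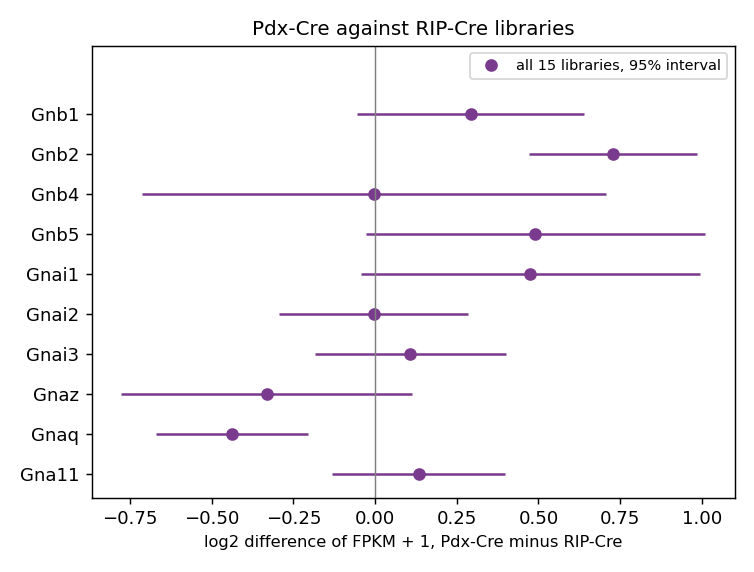
Log2 difference of FPKM + 1 between Pdx-Cre and RIP-Cre libraries (horizontal axis, Pdx-Cre minus RIP-Cre) for the 10 genes, as points with 95% intervals from the fit over all 15 libraries. Gnb2 (0.73) and Gnaq (-0.44) are the genes called after adjustment over all genes tested.

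Other measures moved with the driver. Longer transcripts were lower in Pdx-Cre libraries (slope -0.11 per doubling of length), and Gnaq has the longest transcript of the members (1.98 times the median gene) while Gnb2 has the shortest. With the length trend removed over all 15 libraries, the Gnb2 difference was 0.64 (limma adjusted p = 0.0042). That fit includes the control libraries that chose Gnb2, so its p is not independent of the selection. The Gnaq difference was then -0.31 and no longer called (adjusted p = 0.10). Without control ALDH+ replicate 1 or replicate 2 the Gnaq difference also lost its call (adjusted p = 0.064 and 0.061). The summed FPKM of 4 α cell markers was 9554 to 17356 in Pdx-Cre and 672 to 869 in RIP-Cre knockout ALDH- libraries. In knockout ALDH+ libraries the same sum was 277 to 605 in Pdx-Cre and 157 to 1019 in RIP-Cre cells, which overlapped. The 2 δ cell markers followed the same pattern, with sums of 8255 to 9803 against 510 to 991 in knockout ALDH- cells, and 752 to 1163 against 507 to 1298 in knockout ALDH+ cells. In controls the α sum separated in both populations, at 35849 against 722 to 893 in ALDH- and 5829 against 318 in ALDH+ libraries. The sum of 4 leukocyte markers was higher with Pdx-Cre in all 4 groups, including knockout ALDH+ cells (42.0 to 70.4 against 20.7 to 25.1). Most of that sum was Cd68 (19.0 to 148 FPKM), while Emr1 was at 0 in every library and Ptprc, the common leukocyte marker, was at most 0.0214 FPKM. The sum of 4 duct markers was higher with Pdx-Cre in knockout ALDH+ cells (339 to 821 against 245 to 290). In knockout ALDH- cells the duct sums overlapped (246 to 539 against 211 to 358). In controls the duct sum was lower with Pdx-Cre, at 274 against 383 to 424 in ALDH- and 284 against 456 in ALDH+ libraries. The part of these cell type markers in the Gnb2 and Gnaq differences was not tested.

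Other genes of the pathway were taken from lists of Gα, Gβ, Gγ, regulator, effector and islet receptor genes. Of 108 such genes besides the 10 members, 107 were in the tables and 60 passed the filter on low values. In the knockout ALDH comparison 0 of 60 passed adjustment, with 3 higher and 3 lower at an unadjusted p under 0.05, a share below the 13.1% of all genes. Gng5, which encodes a Gγ subunit that pairs with Gβ1 and Gβ2, had a difference of -0.58 (SE 0.17, adjusted p = 0.20), and Rgs11, a regulator that binds Gβ5, had 1.59 (SE 0.40, adjusted p = 0.16). No list gene was called in either genotype comparison or in the test of the difference between genotypes (0 of 60 each), where 5, 6 and 2 had an unadjusted p under 0.05 (5.78%, 6.61% and 4.23% of all genes). Gnas, the Gαs gene, was the most abundant of the Gα genes at 872 to 1571 FPKM, and Gnao1, which encodes the inhibitory Gαo, was 97.8 to 243 FPKM.

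By cre driver, 3 of the 60 were higher and 7 were lower in Pdx-Cre libraries, against 9.73% of all genes called in either direction. Gng2, a Gγ gene, was higher by 1.7997 (adjusted p = 0.0016), and so were the GTPase-activating regulators Rgs2 (1.59, adjusted p = 0.0019) and Rgs9 (0.74, adjusted p = 0.026), the latter a partner of Gβ5. Among receptors, 4 of 18 tested were lower, with the glucagon receptor gene Gcgr at -2.07 (adjusted p = 0.00027), the GLP-1 receptor gene Glp1r at -0.99 (adjusted p = 0.0011) and the calcium-sensing receptor gene Casr at -0.94 (adjusted p = 0.030). The Gγ gene Gng12 (-0.71, adjusted p = 0.00033), the receptor kinase gene Grk5 (-0.97, adjusted p = 0.021) and Plcb1, an effector of Gαq (-0.58, adjusted p = 0.041), were lower as well.

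The genes most like Gnb2 over the 15 libraries, by Pearson correlation of log2 values, were Arf2 (r = 0.918), Rer1 (0.907), Krtcap2 (0.898), Rpl18 (0.889) and Psmd8 (0.886). All of these had shorter transcripts than the median gene, with relative lengths of 0.111 to 0.892. Among the members the nearest were Gnb5 (0.64), Gna11 (0.63), Gnai2 (0.48) and Gnb1 (0.46), and Gnaq (-0.41) and Gnaz (-0.22) ran against it. The 15 points share group, driver and library composition, so these values are descriptions.

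Since FoxO factors bind DNA, promoter windows in RefSeq (GRCm38.p6, 250 bases before to 50 after a gene start) were searched on both strands for the FoxO motif GTAAACA and for TGACG, the core letters of the cyclic AMP response element. Windows were found for 7 of the 10 genes, all except Gnb4, Gnai2 and Gnaz. GTAAACA was present in 1 of the 7 (Gnai3) and in 3.65% of 32851 windows. TGACG was present in 3 of the 7 (Gnb1, Gnb2 and Gnai3) and in 20.8% of windows. The motifs do not overlap, and were chosen with the results known. The stretches below, each of 30 bases and 5′ to 3′ on the strand of its gene, show the Gnai3 match and the matches of the 2 most abundant Gβ genes nearest to their starts, with the motif or its reverse complement in capitals. The Gnai3 stretch is chr3:108146136-108146165 (minus strand), the Gnb1 stretch chr4:155491318-155491347 (plus strand) and the Gnb2 stretch chr5:137533293-137533322 (minus strand).
Gnai3: ccggaagtgtcGTAAACAgcacacatccgg
Gnb1: gcccgtgcgcggTGACGcgacgtggggttt
Gnb2: cggcgacggccgCGTCActggcgggcggga
The gene whose window held the FoxO letters, Gnai3, had genotype differences of 0.18 (SE 0.19, adjusted p = 0.98) in ALDH- and 0.26 (SE 0.22, adjusted p = 0.91) in ALDH+ cells. Gnai1, with the lower level in knockouts, had no GTAAACA in its window. A match describes letters only and is not a binding site.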

How the data were processed

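The authors deposited 1 gene table per library with FPKM values (fragments scaled by transcript length and library size) and their confidence intervals. The submitters' processing notes name bcl2fastq 1.8.4, TopHat2 2.0.4 and mm9. The annotation and quantifier version are not given in the sources used here. Repeated symbols (248, on 712 lines) and 63 further lines whose estimate failed or was too deep were dropped, which left 22924 genes, without Ins1 and Ins2. Fragments were recovered from interval widths, and 66.7% of those under 500 lay within 0.02 of a whole number. An unweighted TMM factor computed on FPKM rescaled each library (30% trimmed per side on M and 5% on A). Log2(FPKM + 1) was fitted with limma 3.58.1 (R 4.3.3, trend) over all 15 libraries with the 4 groups and the cre driver, for 11253 genes with a mean of at least 1. This scale understates changes of low genes. Tests were two-sided, with Benjamini-Hochberg adjustment per comparison and calls at 0.05. Scripts were tested on simulated data. Groups came from the labels. The members, gene lists and naming rule were chosen with earlier results of these data known. The rule named the 10 members, up to 3 called genes per list and direction, the 5 genes most correlated with Gnb2, and label checks. Rgs11 and Gng5 were named outside it, after their values were seen. Alternatives were another pseudocount (0.1), no filter, other rescaling, no driver term, a replicate block, removal of the length trend, subsets by driver or genotype, and leaving out each library.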

Additional observations from a re-analysis of the deposited data

Results flagged for a closer look

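Among 20 groups of 5 libraries (10 genes in each knockout group), 1 value stood far from the others of its group: Gnai2 was 123 FPKM in knockout ALDH+ replicate 5, while the other 4 libraries lay between 195.0 and 214 FPKM. Chance flags about 1 in 20 such groups. Without that library the Gnai2 ALDH difference in knockouts was -0.26 in place of -0.42 on the log2 scale.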

How the results depend on the processing

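The Gnb2 difference between knockout ALDH+ and ALDH- cells stayed negative and was not called in any of 21 alternatives (-0.42 to -0.27, adjusted p 0.27 to 0.89). The Gnb2 difference between cre drivers was called in all 21 (0.64 to 0.77, adjusted p 0.0011 to 0.040). Of these, the fit on knockout libraries only leaves out all control libraries, which chose Gnb2. It gave 0.70 with the highest adjusted p of the range (0.040, limma). The other alternatives reuse control libraries, so their calls are not independent of the selection. The count of members called between drivers was 2, and 1 with the length trend removed, 1 in knockout libraries only, and 1 to 2 when leaving out each library; Gnb2 was the 1 retained in each case. The other 9 genes gave 0 calls under every alternative run in the knockout ALDH comparison, in both genotype comparisons and for the interaction. In the description of control cells Gnb2 was -1.61 to -1.06 over 13 alternatives, while Gnai3, Gnaq and Gnaz crossed 0. Small knockout ALDH differences changed sign: Gnb4 to 0.19 in RIP-Cre libraries and 0.18 in RIP-Cre knockout libraries, Gnaz to -0.09 and -0.10 in the same, and Gnaq to -0.01 without rescaling, -0.09 with the length trend removed and -0.0033 in RIP-Cre knockout libraries. Leaving out single libraries gave -0.34 to 0.04 for Gnai1 and -0.04 to 0.06 for Gnaq. The cause was not tested. Fits within 1 driver's knockout libraries, drivers compared in knockouts alone and 5 settings of the control description were added after seeing the data. Deviations of libraries with the same replicate number were nearly uncorrelated (-0.045 to 0.070), which cannot show whether they came from the same mice. Control replicate 2 was RIP-Cre in ALDH- and Pdx-Cre in ALDH+ cells, so the replicate block joined unlike drivers there. With the replicate block the Gnb2 difference in knockouts was -0.37 and no count of members called changed. The block fit has no driver or genotype term, so it gives no value for the driver and genotype comparisons. The number of control ALDH+ libraries (2) and the fragments behind Gnb4 (6 to 156) limit the precision of their values.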
